A study of Mus musculus with 6 samples.

Results

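Protocadherins are cell-surface proteins of the cadherin superfamily, and their genes were examined here in mouse inguinal fat. Every non-control probe whose gene name on the array starts with Pcdh was taken, which gave 47 gene names with 64 probes, of 34844 gene names with 55681 probes on the array. They comprise 7 Pcdha, 22 Pcdhb and 6 Pcdhg names of the clustered kind and 12 non-clustered names. The family was chosen by the comparison reported below, because Pcdhb signals were higher in one group of it, so the values of its members in that comparison are given as a description, without tests.

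The study profiled inguinal fat of male C57BL/6J mice after weight regain on 6 Agilent one-colour arrays, 3 titled DIO and 3 titled DIO_CR_WR. DIO_CR_WR stands for diet-induced obesity followed by calorie restriction and weight regain. Per the protocol, mice 2 months old ate a diet with 60% of energy from fat for 1 month, then lost weight under restriction, for about 3 weeks, down to the weight of chow-fed mice of their age, and regained weight on the fatty diet, while the comparison mice had chow before they too were given that diet in the last period. The protocol calls the regaining mice DIO and the comparison mice CTR, which differs from the titles, and groups here follow the titles. The sample labels do not settle which arm a title stands for. The names of the array files point to CTR for the samples titled DIO, and if the titles used DIO in the sense of the protocol, every difference below would have the opposite meaning. The samples carry different age labels, 6, 7 and 8 months for the DIO samples and 9, 10 and 11 months for the DIO_CR_WR samples. They rise by 1 month from sample to sample and may not be real ages, so values with age in the model are given only as a check of the processing. No label says that each sample is a separate mouse, and the spread between samples may therefore be technical in part. In RNA of whole tissue, fewer cells of a type and less RNA per cell cannot be told apart.

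Clustered protocadherins are best known from neurons, where each cell uses its own small choice of promoters from the alpha, beta and gamma clusters and the proteins bind matching ones on neighbouring cells. Alpha and gamma transcripts join one variable exon to constant exons shared by the whole cluster, whereas each beta gene is a single exon with no constant region. The promoter choice depends on CTCF and cohesin, and DNA methylation and repressive chromatin keep the unused promoters silent. Non-clustered protocadherins have loci of their own, are also found outside the nervous system, and several of them recruit the WAVE complex, which remodels actin.

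Signals are given as percent of the 75th percentile of all non-control probes on the same array, the quantity by which the arrays were scaled. That percentile was an intensity of 4605 to 4991 in DIO and of 6050 to 7126 on the DIO_CR_WR arrays. The lowest signal well above background differed more: it was 1.15, 0.667 and 0.635% on DIO arrays 1, 2 and 3, and 5.17, 2.08 and 1.495% on DIO_CR_WR arrays 1, 2 and 3. The share of probes well above background ran from 68.2 to 79.2% in DIO and from 51.6 to 65.7% on the DIO_CR_WR arrays, and was lowest on DIO_CR_WR 1. DIO 1 was hybridised on one slide with the 3 DIO_CR_WR arrays, and DIO 2 and DIO 3 on another, so the difference of each measured member is also given with the slide as a block ("slide block"), which sets DIO 1 against the 3 DIO_CR_WR arrays. The adipocyte markers Adipoq and Plin1 were bright in both groups, at 2640 ± 264% and 1501 ± 204% (SD, n = 3) in DIO and 3109 ± 1135% and 1199 ± 302% (SD, n = 3) in DIO_CR_WR.

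Over all 26180 genes measured, limma with Benjamini-Hochberg adjustment called 0 genes (0%) at an adjusted p of 0.05, and the lowest adjusted value was 0.108. Unadjusted, 7081 genes had a p under 0.05, of which 1421 (5.43%) were higher and 5660 (21.6%) lower in DIO_CR_WR. Without DIO replicate 1 the adjusted count was 4057, and without DIO replicate 3 it was 1. Leaving out DIO 1 puts the groups on separate slides, so group and slide cannot be told apart in the count of 4057. All 3 DIO_CR_WR arrays lay above all 3 DIO arrays for 1898 genes (7.25%) and below them for 6941 (26.5%). The median log2 difference of all genes, DIO_CR_WR minus DIO, was −0.20, or −0.10 with the slide as a block. Scaling the arrays to their spike-in controls instead added 0.50 to every difference and moved that median to 0.30.

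Of the 47 protocadherin genes, 37 had a probe that passed the filter (well above background on 3 or more arrays): 5 Pcdha, 14 Pcdhb, all 6 Pcdhg and all 12 non-clustered genes. Of the 64 probes, 45 passed, 23 were above background on all 6 arrays and 10 on none, and none was saturated on any array. The number of member probes above background was 46, 49 and 46 on DIO arrays 1, 2 and 3 and 24, 34 and 42 on DIO_CR_WR arrays 1, 2 and 3. The loss was uneven among the groups of the family. Pcdhb probes above background numbered 15, 16 and 15 on the DIO arrays and 12, 15 and 15 on the DIO_CR_WR arrays, whereas Pcdhg probes went from 7 on every DIO array to 2, 4 and 5. Non-clustered probes went from 19, 20 and 19 to 9, 11 and 18, and Pcdha probes from 5, 6 and 5 to 1, 4 and 4. Signal above background on the 3 DIO arrays but on fewer DIO_CR_WR arrays was seen for 4 of 5 measured Pcdha, 3 of 14 Pcdhb, 5 of 6 Pcdhg and 4 of 12 non-clustered genes, beside 21.7% of all genes. The part of the higher background limit of the DIO_CR_WR arrays in the differences below was not tested.

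The Pcdhb genes, which encode adhesion proteins without a constant cytoplasmic end, span chr18:37427011-37680728 (mm9) as their 22 probes lie, between the Pcdha probes at chr18:37114742-37347294 and the Pcdhg probes at chr18:37823813-38001437. Of the 14 that were measured, 12 were above 0 in DIO_CR_WR minus DIO and all 14 were above the median of all genes. Their median log2 difference was 0.42, with a range of −0.16 to 1.20, which is 0.62 above the median of all genes. In 6 of the 14 the groups did not overlap, all of them higher in DIO_CR_WR, beside 7.25% of all genes, and nothing is read from this count, since this comparison chose the family. With the slide as a block the median was 0.14, which is 0.24 above that of all genes, and 11 of 14 were above 0.

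Among the Pcdhb genes, Pcdhb10 had the largest difference relative to its standard error. Its signal was 3.68, 2.79 and 2.80% on DIO arrays 1, 2 and 3 and 5.71, 6.06 and 7.04% on DIO_CR_WR arrays 1, 2 and 3. All DIO_CR_WR values lay above all DIO values, with a log2 difference of 1.03 ± 0.18 (SE of the model, n = 3 and 3), or 2.04-fold, and 0.76 with the slide as a block. The first DIO_CR_WR value was not well above the background of its array. Pcdhb6 read 6.81, 4.54 and 5.47% on the DIO arrays and 11.3, 12.2 and 10.2% on the DIO_CR_WR arrays, each well above background. The groups lay apart by 1.02 ± 0.20 on the log2 scale (SE, n = 3 and 3), or 2.02-fold; blocking on the slide gave 0.72.

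Pcdhb21 had the highest log2 difference of the 37 measured genes, 1.20 ± 0.52 (SE, n = 3 and 3; slide block 0.77), but one array carried much of it. Its signal was 5.32, 3.97 and 2.94% on the DIO arrays and 6.11, 20.4 and 6.01% on the DIO_CR_WR arrays, and without DIO_CR_WR replicate 2 the difference was 0.61. DIO_CR_WR 2 was also the one array of its group with a high value for Pcdhb8 (4.51% against 1.15 and 0.336%), Pcdha4 (4.10% against 1.23 and 0.519%), Pcdha12 (8.05% against 1.12 and 0.988%) and Pcdhga10 (4.94% against 1.21 and 1.58%). These 5 genes were singled out after their values were seen. In each of Pcdhb8, Pcdha4, Pcdha12 and Pcdhga10, the other DIO_CR_WR arrays were not well above background.

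Pcdhb16 measured 10.8, 9.12 and 10.5% on the DIO arrays and 17.0, 16.2 and 12.7% on the DIO_CR_WR arrays. The groups did not overlap, and the log2 difference was 0.58 ± 0.18 (SE, n = 3 and 3), with 0.48 for the slide as a block. Pcdhb4 did not overlap either, at 14.6, 11.1 and 12.3% against 16.2, 18.9 and 15.2%, with a log2 difference of 0.41 ± 0.18 (SE, n = 3 and 3). The distance between its highest DIO array and its lowest DIO_CR_WR array was small, and with the slide as a block the difference was 0.19.

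The Pcdhb3 probe is printed 10 times on each array and so gives the technical spread within an array. Averaged over its spots on the log2 scale, it was at 3.39, 3.23 and 2.81% on the DIO arrays and at 4.29, 4.64 and 4.66% on the DIO_CR_WR arrays, with no overlap and a log2 difference of 0.53 ± 0.15 (SE, n = 3 and 3; 0.42 with the slide as a block). Single spots ran from 2.02 to 4.29% on DIO 1, from 2.23 to 4.66% on DIO 2 and from 2.21 to 3.80% on DIO 3. They ran from 3.75 to 5.20% on DIO_CR_WR 1, from 3.42 to 5.16% on DIO_CR_WR 2 and from 4.30 to 5.06% on DIO_CR_WR 3, after spots with an outlier flag were left out. Spots varied with a coefficient of variation of 15.6 to 25.1% within DIO arrays and 5.04 to 11.3% within DIO_CR_WR arrays, so single spots of both groups overlapped although the array means did not. On DIO_CR_WR 1, 0 of its 10 spots were well above background.

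Pcdhb20 and Pcdhb17 turned on the slide. Pcdhb20 gave 17.5, 8.15 and 5.45% on the DIO arrays and 18.9, 16.9 and 15.6% on the DIO_CR_WR arrays. DIO 1, which shares its slide with the DIO_CR_WR arrays, lay within the DIO_CR_WR range, while DIO 2 and DIO 3 lay below it. The log2 difference of Pcdhb20 was 0.89 ± 0.42 (SE, n = 3 and 3) and became −0.04 with the slide as a block. For Pcdhb17 the values were 59.9, 41.5 and 25.7% against 61.5, 61.9 and 42.2%, with the groups overlapping, a log2 difference of 0.44 ± 0.34 (SE, n = 3 and 3), and −0.14 when blocked by slide. Among the Pcdhb genes generally, DIO 1 was the highest DIO array in 13 of the 14 measured Pcdhb genes, beside 23.6% of all genes, 1 of 5 Pcdha, 1 of 6 Pcdhg and 1 of 12 non-clustered genes. Whether slide, sample or group accounts for this was not tested, and for DIO 2 and DIO 3 slide and sample cannot be told apart.

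**Figure D1:**
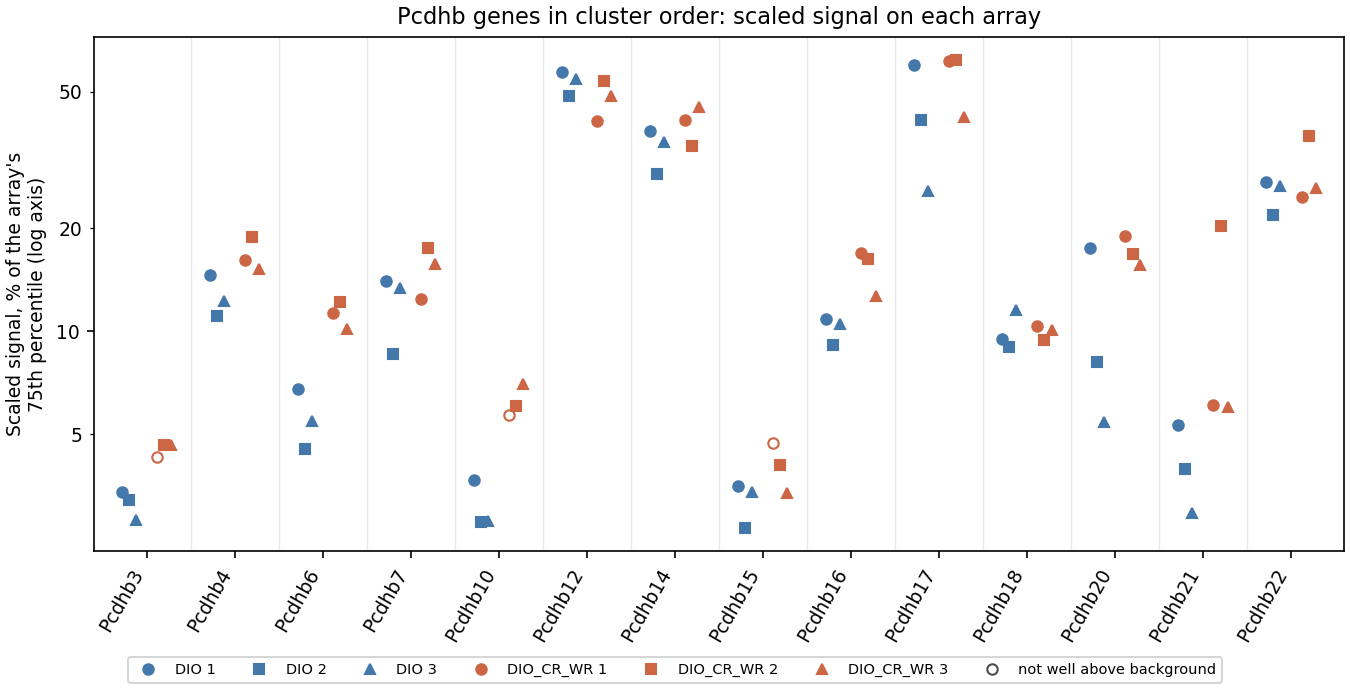
Scaled signal of the 14 measured Pcdhb genes in the order of their probes along the cluster, on a log axis, with 1 point per array (blue, DIO; orange, DIO_CR_WR; open points, not well above background). In Pcdhb3, Pcdhb4, Pcdhb6, Pcdhb10, Pcdhb16 and Pcdhb21 all orange points lie above all blue ones, and in Pcdhb20 the DIO 1 point lies among the orange ones.

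The remaining measured Pcdhb genes overlapped between the groups. Pcdhb7 was at 14.0, 8.60 and 13.4% on the DIO arrays and 12.5, 17.5 and 15.7% on the DIO_CR_WR arrays, a log2 difference of 0.37 ± 0.25 (SE, n = 3 and 3; slide block 0.11). Pcdhb15, a dim probe, was at 3.54, 2.67 and 3.41% against 4.72, 4.08 and 3.37%, a log2 difference of 0.34 ± 0.20 (SE, n = 3 and 3; slide block 0.18). Pcdhb14 had 28.7 to 38.4% in DIO and 34.7 to 45.2% in DIO_CR_WR, a log2 difference of 0.24 ± 0.19 (SE, n = 3 and 3; slide block 0.07). In each of these the DIO_CR_WR mean was the higher one, by less than 2 standard errors. Pcdhb22 ranged from 21.9 to 27.3% against 24.7 to 37.1%, with 0.20 ± 0.21 (slide block 0.08). Pcdhb18 ranged from 9.02 to 11.6% against 9.42 to 10.3%, with −0.005 ± 0.16 (slide block 0.06). Pcdhb12, with signals of 48.5 to 57.2% against 41.1 to 53.9%, had −0.16 ± 0.17 (SE, n = 3 and 3; slide block −0.26). With spike-in scaling, which shifts every gene alike, both were above 0, as were all 14.

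The other 8 Pcdhb genes, Pcdhb1, Pcdhb2, Pcdhb5, Pcdhb8, Pcdhb9, Pcdhb11, Pcdhb13 and Pcdhb19, were above background on at most 2 arrays. Pcdhb5, Pcdhb11 and Pcdhb19 were above it on none, so they carry no order between the groups. Pcdhb8 and Pcdhb9 were above background on 1 DIO_CR_WR array each and on no DIO array. Pcdhb8 was at 4.51% on DIO_CR_WR 2, and Pcdhb9 at 9.24% on DIO_CR_WR 1. The other DIO_CR_WR arrays were near background for both, with surrogate values, so no fold is given. Pcdhb13 was above background on 1 array of each group, Pcdhb1 on 2 DIO arrays and Pcdhb2 on 1.

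A restriction to genes above background on all 6 arrays removes the dimmest signals. Of the 11 Pcdhb genes that remained, 9 were above 0, with a median log2 difference of 0.41 beside −0.13 for all genes treated alike, and 0.08 with the slide as a block. The measured Pcdhb genes lay in the lower part of the brightness range, with 3, 7 and 4 of them in brightness groups 1, 2 and 3 when all genes were divided into 5 equal groups by mean signal. All genes in those groups had medians of −0.48, −0.25 and −0.03, and the Pcdhb genes in them had medians of 0.53, 0.58 and 0.22. The 22 Pcdhb probes had a median GC content of 35.8%, below the 43.3% of all probes, and ranged from 31.7 to 55.0%; the part of base composition in the result was not tested. None of the 22 lists a transcript of a second gene in the array's annotation. Taf7, a subunit of the general transcription factor TFIID, is named for its position between the beta and gamma clusters and not by its p. It had a log2 difference of 0.00 ± 0.31 (SE, n = 3 and 3, limma, adjusted p = 0.998).

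**Figure D2:**
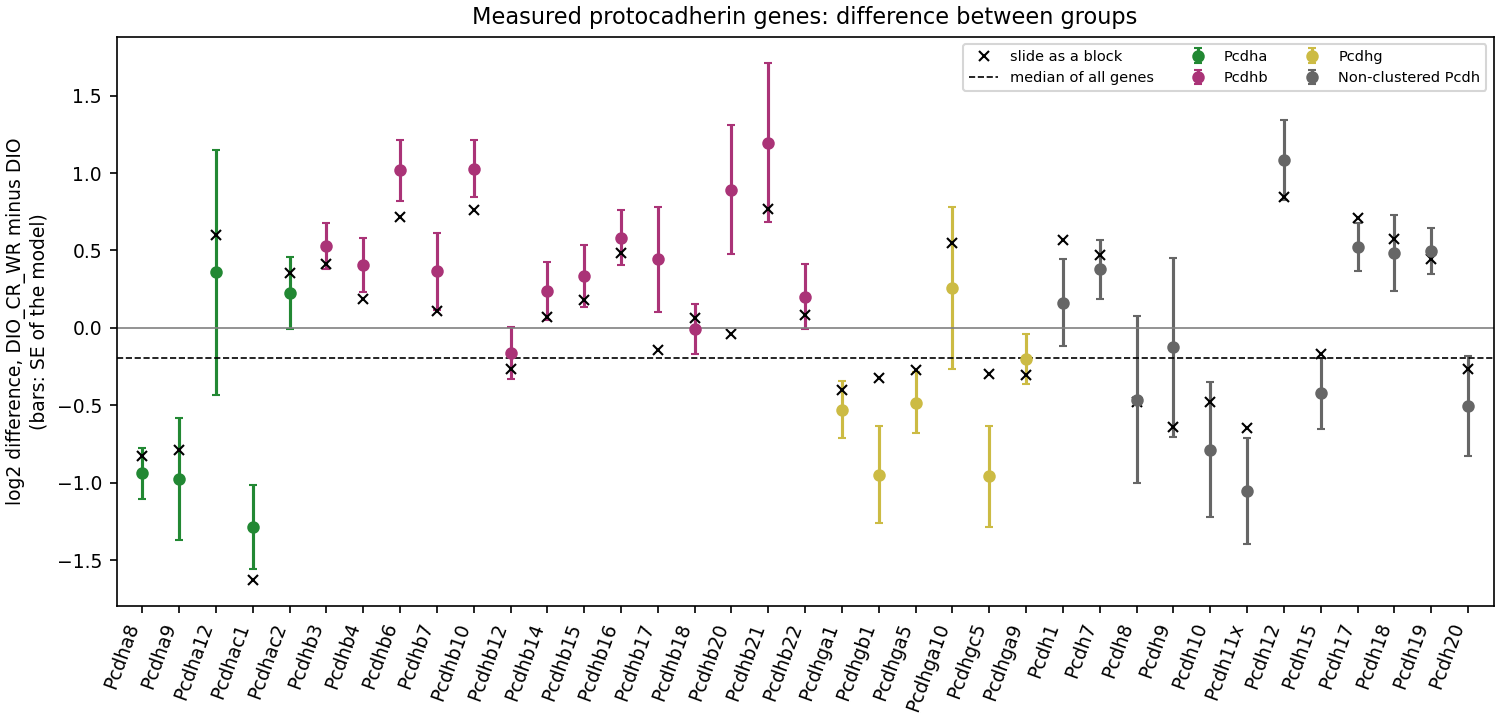
Log2 difference between the groups for the 37 measured protocadherin genes, by group of the family, with the standard error of the model as bars, crosses for the value with the slide as a block, and a dashed line at the median of all genes (−0.20). All 14 Pcdhb points lie above the dashed line, and the crosses of Pcdhb17 and Pcdhb20 lie below 0.

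Most Pcdha and Pcdhg probes were dim. Of the 5 measured Pcdha genes 2 were above 0, with a median log2 difference of −0.94, or −0.79 when blocked by slide. Of the 6 Pcdhg genes 1 was above 0, with a median of −0.51, or −0.30 with the slide as a block. The groups did not overlap in 2 Pcdha and 3 Pcdhg genes, all lower in DIO_CR_WR, beside 26.5% of all genes. As 4 of the 5 Pcdha and 5 of the 6 Pcdhg genes were below background on some DIO_CR_WR array, much of each median rests on signals that have only an upper bound there. With spike-in scaling the Pcdhg median was −0.0061.

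Pcdhac1, one of the C-type alpha isoforms, was at 5.11, 3.16 and 4.04% on the DIO arrays and at 1.23, 1.76 and 2.09% on the DIO_CR_WR arrays. The groups did not overlap, the log2 difference was −1.28 ± 0.27 (SE, n = 3 and 3; slide block −1.63), and 1 of the 3 DIO_CR_WR values was well above background. The background limit of DIO_CR_WR 1, 5.17%, lay above every DIO value of Pcdhac1, so that array does not order the groups. The Pcdha8 probe that passed was at 5.37, 6.19 and 5.92% on the DIO arrays and at 2.83, 2.81 and 3.51% on the DIO_CR_WR arrays, without overlap, with −0.94 ± 0.16 (SE, n = 3 and 3; slide block −0.82). In the array's annotation this probe lists transcripts of Pcdha4, Pcdha7 and Pcdha8 and of the readthrough gene Gm37013, so its signal cannot be assigned to Pcdha8 alone. Pcdha9 overlapped, at 3.14, 4.22 and 3.44% against 1.21, 1.48 and 3.38% and a log2 difference of −0.97 ± 0.39 (SE, n = 3 and 3; slide block −0.79). Pcdha12 was above 0, at 0.36 ± 0.79 (slide block 0.60), but without DIO_CR_WR replicate 2 it was at −0.62. Pcdha4 and Pcdha11 were not measured.

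Pcdhgb1 was at 1.74, 3.36 and 3.30% on the DIO arrays and at 1.11, 1.42 and 1.71% on the DIO_CR_WR arrays, a log2 difference of −0.95 ± 0.31 (SE, n = 3 and 3). Its groups did not overlap, though DIO 1 lay close to DIO_CR_WR 3, and with the slide as a block the difference was −0.33. Pcdhgb1 was above background on 1 DIO_CR_WR array, and the limits there lie around its DIO signals, so its lack of overlap does not order the groups. Pcdhgc5, a C-type gamma isoform, overlapped, at 2.50, 5.10 and 4.83% against 1.85, 1.73 and 2.63%, with −0.96 ± 0.33 (SE, n = 3 and 3), or −0.30 with the slide as a block. It too was above background on 1 DIO_CR_WR array. Pcdhga1 did not overlap, at 3.88 to 4.56% against 2.41 to 3.38%, with −0.53 ± 0.18 (slide block −0.40), but its DIO_CR_WR 1 value was not well above background. The limit of that array, 5.17%, lay above every DIO value of Pcdhga1, so that array does not order the groups. Pcdhga5, counted among the 3 Pcdhg genes without overlap, was at 1.78 to 2.52% on the DIO arrays and above background on no DIO_CR_WR array. The DIO_CR_WR background limits lie around those signals, so neither its difference nor its lack of overlap orders the groups. Pcdhga10 was at 0.26 ± 0.52 (slide block 0.55), and at −0.36 without DIO_CR_WR replicate 2.

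**Figure D3:**
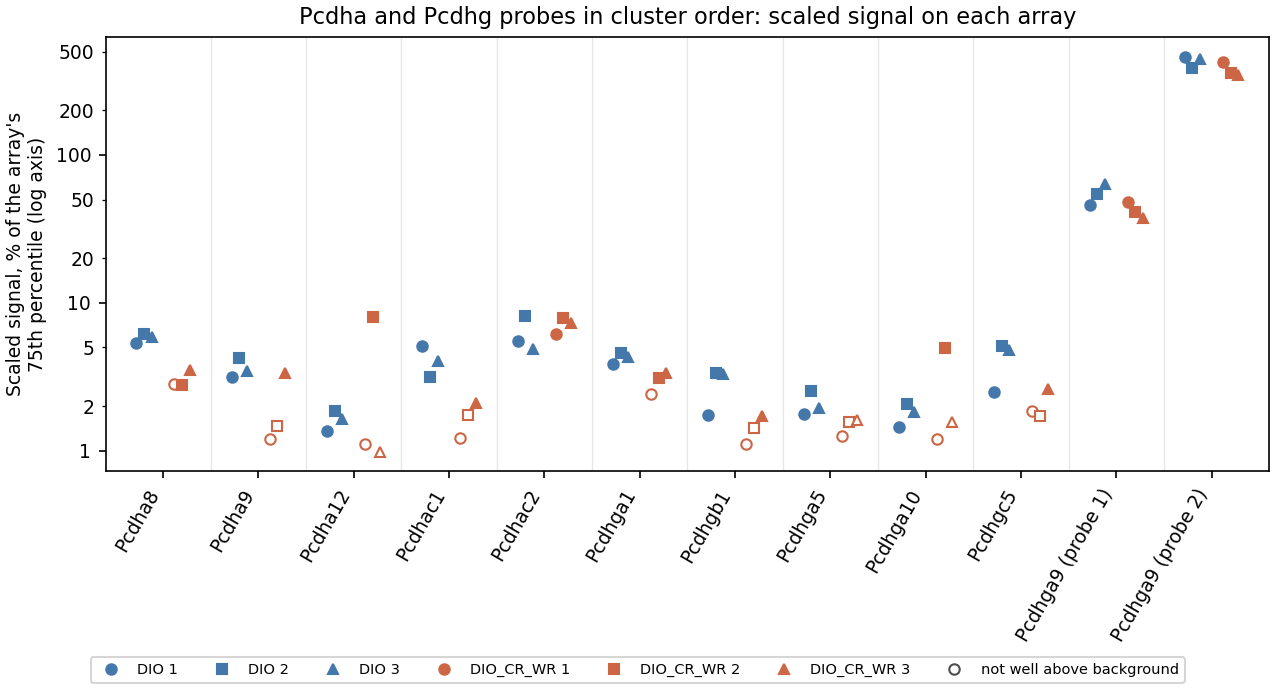
Scaled signal of the 12 Pcdha and Pcdhg probes that passed, in the order of their positions, on a log axis, with 1 point per array (blue, DIO; orange, DIO_CR_WR; open points, not well above background). The DIO_CR_WR points of the dim probes are mostly open, while those of Pcdhac2 and of both Pcdhga9 probes are filled and overlap with DIO.

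Probes that list transcripts of several isoforms and lie at the far end of each cluster bear on the constant exons. One named Pcdhac2, at chr18:37347235-37347294 (mm9), lies past all other Pcdha probes and lists transcripts of Pcdha4, Pcdha9, Pcdhac1 and Pcdhac2. It was at 5.55, 8.17 and 4.92% on the DIO arrays and at 6.14, 7.89 and 7.35% on the DIO_CR_WR arrays, all well above background. The groups overlapped, with a log2 difference of 0.22 ± 0.23 (SE, n = 3 and 3), or 0.35 with the slide as a block. A pair of probes named Pcdhga9, at chr18:37999725-37999784 and chr18:38001378-38001437 (mm9), lies past all other Pcdhg probes and lists transcripts of several gamma genes, among them Pcdhga5 and Pcdhga6.

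The second of this pair was at 463, 389.5 and 444% on the DIO arrays and 425, 359 and 346% on the DIO_CR_WR arrays. The groups overlapped, and the log2 difference was −0.20 ± 0.16 (SE, n = 3 and 3; slide block −0.30), which equals the median of all genes at 2 decimals. It became 0.30 with spike-in scaling. The first of the pair was at 46.0, 54.6 and 63.9% against 47.8, 41.1 and 37.4%, also overlapping, with −0.38 ± 0.19 (SE, n = 3 and 3), or −0.14 with the slide as a block. With the slide blocked, the gamma probes shared between isoforms did not stand apart from Pcdhgb1 (−0.33) and Pcdhgc5 (−0.30).

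The mean deviation of the measured members of each group on each array, minus that of all genes, summarises the family by sample. For Pcdhb it was 0.05, −0.58 and −0.49 on DIO arrays 1, 2 and 3 and 0.31, 0.52 and 0.19 on DIO_CR_WR arrays 1, 2 and 3. The DIO_CR_WR arrays were the 3 highest, and DIO 1 lay nearer to them than to DIO 2 and DIO 3. The difference of the group means was 0.68, and 0.28 on slide 1 alone. The Pcdha score was 0.24, 0.22 and 0.07 against −0.60, 0.20 and −0.13, and the Pcdhg score −0.02, 0.27 and 0.21 against −0.40, 0.05 and −0.11. Both overlapped between groups and were lowest on DIO_CR_WR 1, the array with the highest background limit. The non-clustered score stayed between −0.12 and 0.01 on every array other than DIO_CR_WR 3, at 0.23.

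**Figure D4:**
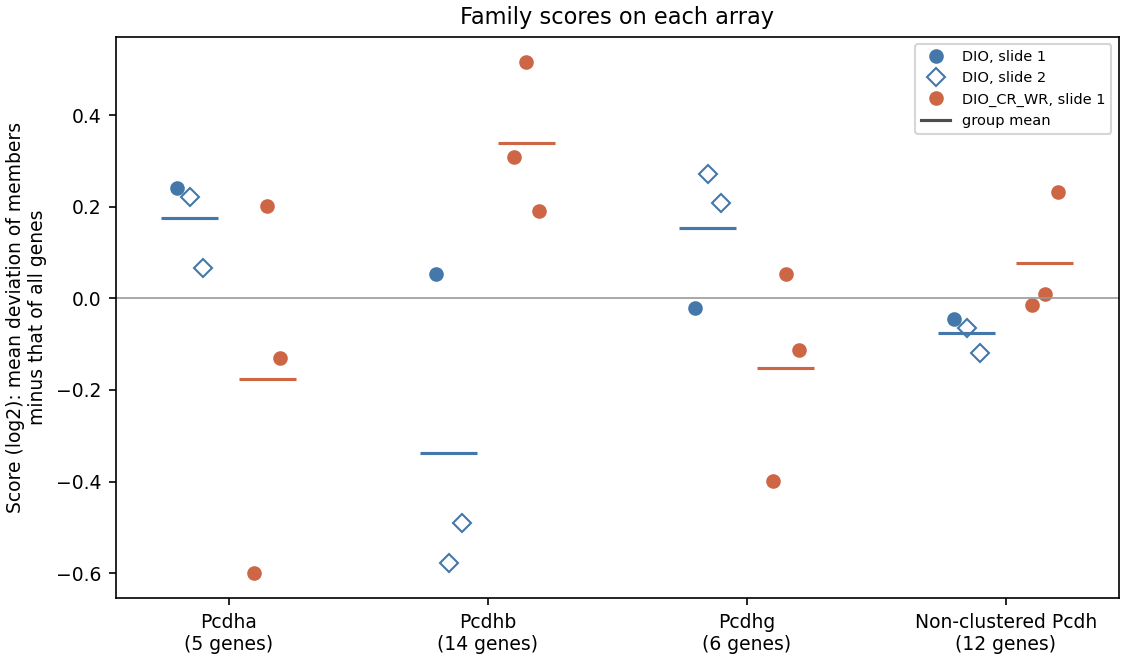
Score of each group of the family on each array, as the mean log2 deviation over its measured genes, less the same over all genes, with the group means as lines and open diamonds for the DIO arrays on slide 2. The Pcdhb points of DIO_CR_WR (0.19 to 0.52) lie above DIO 1 (0.05), which lies above DIO 2 and DIO 3 (−0.58 and −0.49).

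Among the non-clustered genes, most of those above background on every array were higher in DIO_CR_WR. Of 12 measured genes 6 were above 0 and 6 below, with a median log2 difference of 0.02. The median was 0.52 with spike-in scaling and −0.46 when all passing probes of a gene were averaged. The groups did not overlap in 4 genes that were higher in DIO_CR_WR, beside 7.25% of all genes, and in 1 that was lower, beside 26.5%. Of the 8 genes above background on all 6 arrays, 6 were above 0, with a median of 0.43, and of 0.52 with the slide as a block, beside −0.13 and −0.08 for all genes treated alike.

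Pcdh12, known from endothelial cells, had the highest log2 difference of the non-clustered genes. Its probe at chr18:38426868-38426927 (mm9) was at 41.2, 24.6 and 42.5% on the DIO arrays and at 77.0, 83.5 and 63.4% on the DIO_CR_WR arrays. The groups lay well apart, with 1.08 ± 0.26 (SE, n = 3 and 3), or 2.12-fold, and 0.85 with the slide as a block. Beside it, the summed signal of 8 endothelial markers was 2206 to 3468% in DIO and 2665 to 2771% in DIO_CR_WR, and their median log2 difference was 0.10 (slide block 0.36). By limma 2 of the 8 were higher at an unadjusted p under 0.05 and none was lower, beside 5.43% and 21.6% of all genes. They were Cdh5, the cadherin of endothelial junctions, at 0.54 ± 0.19 (SE, n = 3 and 3; adjusted p = 0.145) and Pecam1 at 0.41 ± 0.15 (SE, n = 3 and 3; adjusted p = 0.153). Tek, Emcn and Tie1 were also above 0, at 0.42, 0.14 and 0.06. Vwf, Kdr and Cldn5 were below 0, at −0.33, −0.32 and −0.06. The part of these markers in the Pcdh12 value was not tested.

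Pcdh17, which takes part in axon growth through the WAVE complex, was at 41.7, 48.6 and 52.8% on the DIO arrays and at 71.2, 66.6 and 67.1% on the DIO_CR_WR arrays. The groups did not overlap, and the difference was 0.52 ± 0.16 (SE, n = 3 and 3), or 0.71 with the slide as a block. Pcdh19, the X-linked gene mutated in an epilepsy of females, was at 102.5, 88.1 and 106.6% against 142, 134 and 143%. Its groups also did not overlap, with 0.50 ± 0.15 (SE, n = 3 and 3), or 0.44 with the slide as a block.

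Pcdh7 was read by 3 passing probes on chromosome 5, all higher in DIO_CR_WR without overlap. The brightest gave 20.6, 22.4 and 23.0% on the DIO arrays and 28.1, 35.1 and 23.5% on the DIO_CR_WR arrays, a log2 difference of 0.38 ± 0.19 (SE, n = 3 and 3; slide block 0.47), with DIO_CR_WR 3 only just above the DIO arrays. The other 2 gave 0.55 ± 0.23 (slide block 0.85) and, for a dim one, 1.46 ± 0.43 (slide block 0.76). The dim one was well above background on 2 DIO and 2 DIO_CR_WR arrays. Its DIO_CR_WR 1 value, 2.55%, was not well above background, so the lack of overlap of this probe does not order the groups. Pcdh18 overlapped, at 68.0, 58.8 and 94.6% against 126, 95.7 and 85.8%, with 0.48 ± 0.24 (SE, n = 3 and 3), or 0.57 with the slide as a block.

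The promoters of Pcdh17, Pcdh19 and Pcdh7 are shown because these members outside the gene-cluster chromosome were above background on all 6 arrays and higher in DIO_CR_WR without overlap. The sequences are from RefSeq, build GRCm38.p6, from 250 bases before to 50 after the start of the gene, at chr14:84443313-84443612 on the plus strand, chrX:133688944-133689243 on the minus strand and chr5:57717831-57718130 on the plus strand. Capitals mark matches to the GC box GGGCGG and the CCAAT box CCAAT on either strand.
Pcdh17: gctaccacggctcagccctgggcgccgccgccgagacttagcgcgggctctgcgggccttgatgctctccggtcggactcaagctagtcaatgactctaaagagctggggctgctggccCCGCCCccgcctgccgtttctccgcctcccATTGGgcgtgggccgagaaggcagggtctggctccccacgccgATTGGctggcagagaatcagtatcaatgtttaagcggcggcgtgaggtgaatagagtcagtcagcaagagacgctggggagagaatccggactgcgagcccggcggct
Pcdh19: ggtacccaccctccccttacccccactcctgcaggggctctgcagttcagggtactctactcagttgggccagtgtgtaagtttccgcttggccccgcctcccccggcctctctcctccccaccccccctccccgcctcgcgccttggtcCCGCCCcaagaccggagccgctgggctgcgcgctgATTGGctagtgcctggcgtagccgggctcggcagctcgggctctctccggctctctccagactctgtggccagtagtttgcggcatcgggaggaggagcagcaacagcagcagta
Pcdh7: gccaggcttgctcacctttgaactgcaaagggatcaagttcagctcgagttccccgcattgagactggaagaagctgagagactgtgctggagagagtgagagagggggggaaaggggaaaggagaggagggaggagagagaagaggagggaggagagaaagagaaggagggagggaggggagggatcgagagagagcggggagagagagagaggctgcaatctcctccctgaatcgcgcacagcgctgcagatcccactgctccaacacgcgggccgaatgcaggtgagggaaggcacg

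Pcdh17 and Pcdh19 each hold a GC box, and CCAAT boxes lie between it and the start of the gene, while the Pcdh7 window holds neither motif and has a long run of purines. Over the 10 RefSeq promoters listed for 9 non-clustered genes, a GC box was in 4, beside 35.7% of 32851 mouse promoters of the same length, and a CCAAT box was in 9, beside 37.4%. A TATA box, TATAAA, was in 2 (13.6% of all promoters) and an E-box, CANNTG, in 3 (72.3%). Both strands were searched for each motif on its own. These matches describe the sequences alone.

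Among the other non-clustered genes, none was higher in DIO_CR_WR without overlap. Pcdh1, an adhesion protein of epithelia, disagreed between its probes. Its brighter probe was at 47.1, 54.5 and 95.2% against 72.0, 65.4 and 72.7%, with 0.16 ± 0.28 (SE, n = 3 and 3; slide block 0.57), and its dimmer one at 7.11, 10.0 and 7.44% against 1.55, 2.16 and 4.07%, with −1.76 ± 0.37 (SE, n = 3 and 3; slide block −1.58) and no overlap. The dimmer probe is annotated to a different transcript record of the gene. It was well above background on 1 DIO_CR_WR array, so the size of its difference rests on signals with only an upper bound. Pcdh20 overlapped, at 10.1, 12.0 and 14.1% against 13.7, 6.37 and 6.93%, with −0.50 ± 0.32 (SE, n = 3 and 3; slide block −0.26).

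Pcdh15, a component of the tip links of inner-ear hair cells, has 7 probes, of which 4 passed. The brightest was at 38.3, 43.8 and 56.9% against 26.9, 37.1 and 39.6%, overlapping, with −0.42 ± 0.23 (SE, n = 3 and 3; slide block −0.17), and 0.08 with spike-in scaling, which shifts every gene alike. Another passing probe gave −1.10 (slide block −0.33) and was above background on 2 DIO_CR_WR arrays. A dim one gave −0.42 (slide block −0.21), at 1.73, 2.20 and 2.13% on the DIO arrays. It was above background on 1 DIO_CR_WR array. The last, at 1.45, 3.69 and 3.16% on the DIO arrays, was above background on no DIO_CR_WR array. The DIO_CR_WR background limits lie around these DIO signals, so neither of these dim probes orders the groups. Of the 3 probes that did not pass, one was above background on 1 DIO_CR_WR array, at 3.65%, and on no other array.

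Pcdh8, Pcdh9, Pcdh10 and Pcdh11x were dim, with signals of 1.09 to 5.79% on their brightest probes, and each was above background on 3 DIO arrays and 1 DIO_CR_WR array. Pcdh11x, on the X chromosome, was at 2.71, 4.48 and 3.82% against 1.09, 2.20 and 2.19%, without overlap, with −1.05 ± 0.34 (SE, n = 3 and 3; slide block −0.64). The background limit of DIO_CR_WR 1, 5.17%, lay above every DIO value of Pcdh11x, so that array does not order the groups. Pcdh10, which binds the WAVE complex, was at 2.87, 5.37 and 2.91% against 1.44, 1.63 and 3.75%, with −0.79 ± 0.43 (SE, n = 3 and 3; slide block −0.48). The groups overlapped in Pcdh10, as they did in Pcdh8 and Pcdh9. Pcdh8, an activity-regulated synaptic protein, was at 2.39, 4.27 and 1.30% against 1.20, 1.35 and 3.13%, with −0.46 ± 0.54 (slide block −0.48). Pcdh9 was at 4.43, 4.32 and 1.56% against 2.10, 1.89 and 5.79%, with −0.12 ± 0.58 (slide block −0.64). Both of these turned above 0 with spike-in scaling, to 0.04 and 0.37.

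**Figure D5:**
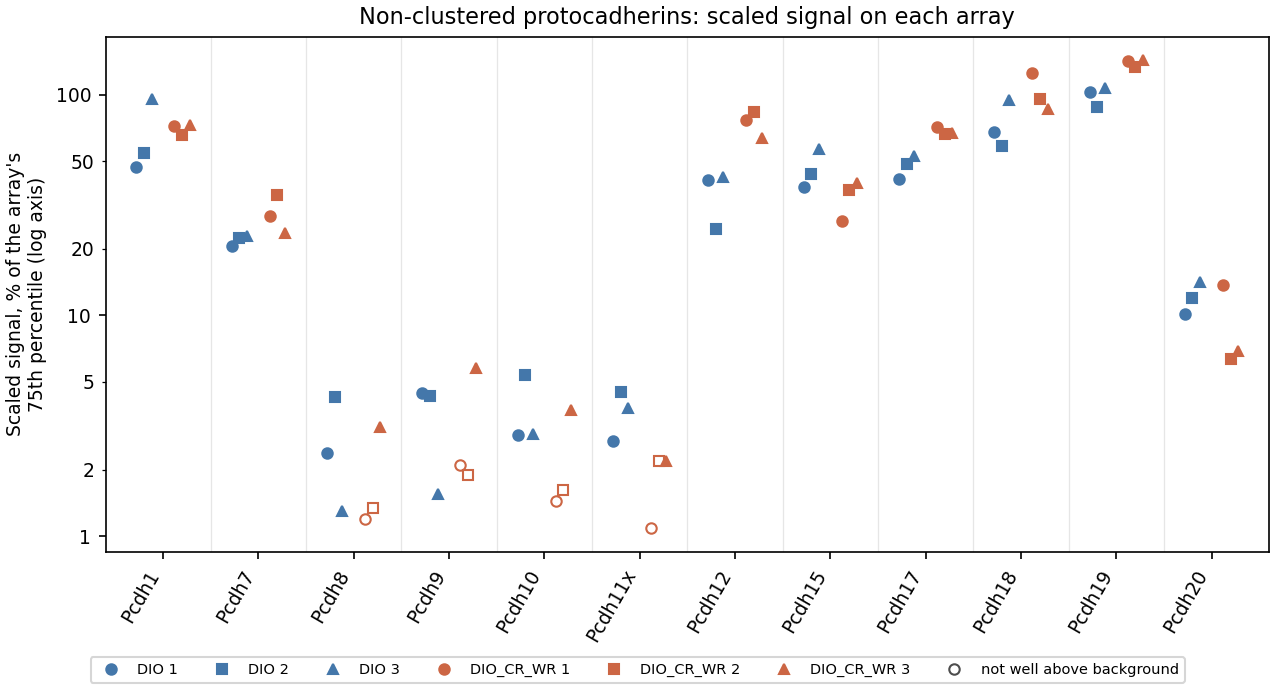
Scaled signal of the brightest passing probe of the 12 non-clustered protocadherins, on a log axis, with 1 point per array (blue, DIO; orange, DIO_CR_WR; open points, not well above background). In Pcdh7, Pcdh12, Pcdh17 and Pcdh19 all orange points lie above all blue ones, and most orange points of the dim Pcdh8, Pcdh9, Pcdh10 and Pcdh11x are open.

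Genes around and upstream of the clusters were taken from lists and tested with limma over all genes; none in any list passed an adjusted p of 0.05. Genes of these lists are counted as higher or lower where the unadjusted p was under 0.05, which held for 5.43% (higher) and 21.6% (lower) of all genes. Of 27 measured named neighbours within 500 kb of the clusters, 4 were higher and 2 lower, with a median log2 difference of 0.00 and of −0.09 with slide block. The 3 with the smallest p were Arap3 at 0.76 ± 0.25 (SE, n = 3 and 3; adjusted p = 0.139; slide block 0.23), 1700086O06Rik at 0.46 ± 0.15 (adjusted p = 0.139) and Gnpda1 at 0.41 ± 0.15 (adjusted p = 0.15). Of 21 regulators of cluster promoters, 2 were higher and 1 lower, with a median of 0.02 that was −0.11 with slide block. They were Atf7ip, the partner of Setdb1, at 0.57 ± 0.20 (adjusted p = 0.147; slide block 0.34), Setdb1, a histone H3 lysine methyltransferase that represses protocadherin promoters, at 0.51 ± 0.20 (adjusted p = 0.171; slide block 0.14), and the deacetylase Hdac3 at −0.37 ± 0.15 (adjusted p = 0.173).

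Of 24 genes that act with protocadherins inside the cell, the unadjusted p was under 0.05 for 4 that were higher and 2 that were lower, and the median was 0.08. By limma the smallest p were those of Nckap1l, the blood-cell member of the WAVE complex, at 1.05 ± 0.27 (SE, n = 3 and 3; adjusted p = 0.124), Prkca at −0.61 ± 0.18 (adjusted p = 0.131) and Abi1, also of the WAVE complex, at 0.78 ± 0.23 (adjusted p = 0.131; slide block 0.35). Of 39 other measured genes of the cadherin superfamily, 3 were higher and 7 lower, with a median of −0.36 beside −0.20 for all genes, and of −0.07 beside −0.10 with slide block. The smallest p there were those of Dsg4 at −1.21 ± 0.23 (adjusted p = 0.11), Cdh17 at −0.90 ± 0.23 (adjusted p = 0.123) and Cdh20 at −1.39 ± 0.38 (adjusted p = 0.127). The lowest signals well above background on the DIO_CR_WR arrays were 1.495 to 5.17%. The DIO_CR_WR mean of Dsg4, 0.969%, lay below them and that of Cdh20, 2.17%, among them, so the sizes of these differences are uncertain.

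Lists of neuronal and Schwann cell markers had medians below 0, beside a median of −0.20 for all genes. The summed signal of 11 neuronal and axonal markers was 2207 to 3230% in DIO and 1855 to 3164% in DIO_CR_WR, with a median log2 difference of −0.15, none higher and 1 lower by limma at an unadjusted p under 0.05, namely Th at −1.18 ± 0.26 (SE, n = 3 and 3; adjusted p = 0.119). Snap25 alone had a mean of 2316% in DIO and 2253% in DIO_CR_WR, so the sums mostly reflect that gene. The neuronal tubulin Tubb3 was at −0.53 ± 0.30 (limma, adjusted p = 0.295). The 9 measured Schwann cell markers summed to 1239 to 1361% against 1114 to 1241%, with a median of −0.53, 1 higher (Mbp, 0.58 ± 0.20, adjusted p = 0.142, slide block 0.30) and 3 lower, among them Prx at −0.93 ± 0.19 (adjusted p = 0.116) and Sox10 at −0.64 ± 0.24 (adjusted p = 0.158; slide block −0.30).

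Lymphocyte markers had the highest median of the lists. The 5 measured lymphocyte markers summed to 68.8 to 172% in DIO and 156 to 188% in DIO_CR_WR, with a median of 0.84 and 2 higher by limma, Klrk1 at 2.24 ± 0.41 (SE, n = 3 and 3; adjusted p = 0.11) and Cd3g at 1.61 ± 0.38 (adjusted p = 0.119), while Ptprc was at 0.50 ± 0.35 (adjusted p = 0.388; slide block 1.14). The 6 macrophage markers summed to 3833 to 6252% against 4119 to 5294%, with a median of 0.21 (slide block 0.58). By limma 2 were higher, Msr1 at 1.27 ± 0.23 (adjusted p = 0.11) and Mrc1 at 0.67 ± 0.15 (adjusted p = 0.119), and none lower. Emr1 and Csf1r were at 0.42 and 0.00, and Cd68 and Itgam were below 0, at −0.22 and −0.21. The 10 markers of adipocyte progenitors and fibroblasts summed to 7582 to 11037% against 7997 to 8945%, with a median of −0.33 that turned to 0.09 with slide block. By limma 2 were higher, Pdgfrb at 0.57 ± 0.15 (adjusted p = 0.127) and Pdgfra at 0.41 ± 0.15 (adjusted p = 0.158; slide block 0.23), and none lower. The groups did not overlap in 3 markers that were higher and in 2 that were lower, Cd34 at −0.44 (slide block −0.15) and Dpt at −0.32 (slide block −0.20). Klrk1 was dim, with a DIO mean of 0.647% beside lowest signals well above background of 0.635 to 1.15% on the DIO arrays. The part of any of these cell types in the protocadherin values was not tested.

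The remaining lists were those of adipocytes, muscle, mural cells and epithelium. The 8 adipocyte markers summed to 13747 to 16737% in DIO and 11784 to 16310% in DIO_CR_WR, with a median of −0.21 (slide block −0.10) and 2 lower by limma, Cfd at −0.83 ± 0.20 (SE, n = 3 and 3; adjusted p = 0.12; slide block −0.54) and Lipe at −0.54 ± 0.18 (adjusted p = 0.137; slide block −0.35). The 6 skeletal muscle markers summed to 10299 to 12669% against 7341 to 10149%, with a median of −0.48 and 2 lower, Ckm at −0.54 ± 0.16 (adjusted p = 0.131) and Myh4 at −0.43 ± 0.16 (adjusted p = 0.157). Of the 6 markers of pericytes and smooth muscle none had an unadjusted p under 0.05; Myh11 was at −0.33 ± 0.23 (limma, adjusted p = 0.388) and Cspg4 at 0.29 ± 0.25 (adjusted p = 0.469; slide block 0.55). The 5 measured keratinocyte and epithelial markers summed to 24.7 to 54.7% against 22.5 to 33.7%, with 1 lower, Cdh1 at −0.93 ± 0.32 (limma, adjusted p = 0.147). The DIO_CR_WR mean of Cdh1, 0.935%, lay below the lowest signal well above background on each of those arrays, so the size of its difference is uncertain.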

How the data were processed

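RNA of inguinal fat was measured on 6 arrays with 60-base probes, 3 per group by sample title. Each deposited value is an intensity of a spot. Per the file headers, Feature Extraction 10.7.3.1 (10.7.1.1 in the submitters' processing notes) subtracted a local background, corrected a trend within each array and set signals near background to a surrogate, with no scaling between arrays. The mean and background intensities and the flags of 0 or 1 for signal well above background and for outliers were used as deposited. Probe positions are on mm9, per the file headers, and no genome of that build was used here. The deposited table of the whole series was not used, since its column names do not match the titles.

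The 3671 control spots were set aside. The log2 processed intensity was taken with outlier spots missing, spots of a probe were averaged, and each array's 75th percentile was subtracted. Probes well above background on at least 3 of 6 arrays were kept (38460 after 334 with an outlier-flagged array were left out), and each gene name was represented by its probe with the highest mean, giving 26180 genes. R 4.3.3, limma 3.58.1 (lmFit and eBayes, tested on simulated data, two-sided, Benjamini-Hochberg over all genes) and version 1.17.8 of data.table were used. A surrogate value has no order. The number of arrays, the background limit of each array and the slide limit the precision. Printed standard errors are those of the limma fit.

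The family, its groups and the gene and marker lists were chosen with earlier results of these data known. Every member is named or ranged, and from each list the genes with an unadjusted p under 0.05 were named, at most 3 by smallest p, or the 2 with the smallest p where there were none, with Adipoq, Plin1, Tubb3, Pecam1 and Ptprc always; a further marker is not reported here. Alternatives tried were normexp with quantile normalization, quantile normalization, median centring, spike-in scaling, no or a stricter filter, every probe, the mean of probes, trended robust variance, the replicate number, slide or age label in the model, slide 1 alone, and each replicate left out.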

Additional observations from a re-analysis of the deposited data

How the results depend on the processing

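The count of genes past an adjusted p of 0.05, 0 as reported, was 5 with normexp and quantile normalization, 7 with spike-in scaling, 63 over genes above background on all 6 arrays, 26 with trended robust variance, and 0 to 4057 with one replicate left out (limma throughout). The 4057 came without DIO 1, where the groups lie on separate slides and slide and group cannot be told apart. The Pcdhb median (0.42) was above 0 in every alternative, and nothing is read from this, since this comparison chose the family. It was 0.92 with spike-in scaling and 0.70 with the age label as a covariate. With the slide as a block and on slide 1 alone, which give the same estimate, it was 0.14. With one replicate left out it was 0.35 to 0.55, the highest without DIO 1. Trended robust variance and the replicate number could not change it. Neither could every probe or the mean of probes, as each Pcdhb gene has 1 probe. The Pcdha median (−0.94) became −0.27 with normexp, −0.44 with spike-in scaling and −1.28 with age, and turned to 0.22 both without a filter and above background on all 6 arrays, where 1 gene remained. With one replicate left out it was −1.04 to −0.68. The Pcdhg median (−0.51) was −0.22 with normexp, −0.0061 with spike-in scaling, −0.20 (1 gene) above background on all 6 arrays, −0.30 with the slide as a block and on slide 1 alone, −0.93 with age, and −0.59 to −0.38 with one replicate left out. The non-clustered median (0.02) was 0.52 with spike-in scaling, 0.43 on all 6 arrays, −0.42 over every probe, −0.46 over the mean of a gene's probes, 0.14 with the slide as a block and on slide 1 alone, −0.11 with age, and −0.11 to 0.19 with one replicate left out. Single genes whose sign turned, with both the reported difference and the move beyond 1 SD between replicates, were Pcdh15 (0.077), Pcdhga5 (0.016) and Pcdhga9 (0.30) with spike-in scaling, Pcdhga9 (0.065) with age, and Pcdhb20 (−0.038) with the slide as a block and on slide 1 alone. Other turns of sign included Pcdhb17 (−0.14) with the slide as a block, Pcdh8, Pcdh9, Pcdhb12 and Pcdhb18 (0.04 to 0.49) with spike-in scaling, and Pcdha12 (−0.62) and Pcdhga10 (−0.36) without DIO_CR_WR replicate 2. Spike-in scaling adds 0.50 to every gene alike. The cause of these shifts was not tested. Dim probes limit the Pcdha, Pcdhg and part of the non-clustered values.

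Same-numbered arrays had correlated deviations of −0.01, −0.12 and −0.24 across genes, and other pairs −0.11 to 0.24. These values give no sign that the numbers pair the samples, but 3 arrays per group cannot exclude it. A replicate block cannot change any log2 difference, as both groups hold the same numbers, so the Pcdhb median of 0.42 under it is no check. By limma with that block 0 genes passed, with 6169 at an unadjusted p under 0.05.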

Other observations

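A pair of further probes are described as protocadherin in the array files but carry no gene name starting with Pcdh, and were not counted as members. The one named AK082842 was above background on no array, and the one named TC1627912 was above it on 2 DIO arrays and no DIO_CR_WR array, at 0.442, 1.12 and 0.787% of the 75th percentile on DIO arrays 1, 2 and 3.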
